A study of Mus musculus with 18 samples.

Results

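The hippocampus (Hip) was compared with the prefrontal cortex (PFC) in nuclei of specific pathogen-free (SPF) mice, both regions taken from the same animals. The libraries were chosen by the strain label SPF, which gave 6 of the 18 libraries of the series, 3 of Hip and 3 of PFC, from 3 of its 9 mice, and the number in the title (30, 31 or 32) tied both regions to 1 mouse. All animals of the series were male Kun Ming mice, an outbred stock, harvested at 8 weeks. The SPF mice received no colonization or other treatment and were raised apart from the germ-free (GF) mice and the colonized germ-free (CGF) mice, which were GF mice reared with an SPF mouse. The GF mice, whose Hip and PFC were collected in the same way, were used here only as a second measurement of the same regional contrast. Tissue was snap frozen and nuclei were counted by droplet single-nucleus RNA-seq, as unique molecular identifiers (UMIs) per gene. Of the barcodes, 42492 nuclei had at least 200 genes and at most 10% mitochondrial UMIs and were kept (22544 of Hip and 19948 of PFC, of 138000 in the series), and 584 were removed, all by the mitochondrial limit.

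Both tissues are built on glutamatergic projection neurons, but on different ones. The hippocampus holds the granule neurons of the dentate gyrus and the pyramidal neurons of the fields CA1, CA2 and CA3, each with its own transcription factors, and lies against the choroid plexus of the lateral ventricle. The prefrontal cortex holds layered projection neurons, from the upper-layer neurons that connect cortical areas to the deep-layer neurons that leave the cortex, and its layers are specified by factors such as Cux2, Fezf2 and Tbr1. Interneurons and glia occur in both tissues, with regional differences in subtype and in a smaller number of genes.

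The cortex libraries were shallower and held larger shares of mitochondrial and ribosomal-RNA-linked transcripts. The median was 7087, 6540 and 6172.5 UMIs per nucleus in the Hip of mice 30, 31 and 32, and 3037, 3196 and 3208 in their PFC. Mitochondrial transcripts took 0.196%, 0.114% and 0.429% of the UMIs in Hip and 1.49%, 1.78% and 2.86% in PFC. Transcripts that commonly carry ribosomal RNA reads (Gm42418, AY036118, Lars2, Cmss1, Camk1d and Gphn) took 0.217% to 0.353% in Hip and 1.90% to 2.72% in PFC, and the 2778 genes annotated as antisense 1.15% to 1.34% in Hip and 0.458% to 0.504% in PFC. No Hip library overlapped a PFC library in any of these 4 measures. GF mice did not have this gap. Their PFC libraries were the deeper ones, with medians of 6795.5 to 7426.5 UMIs against 4678 to 5905 in Hip, with 0.304% to 0.556% mitochondrial UMIs in PFC and 0.451% to 0.879% in Hip. Each SPF library of Hip held 55521808 to 63063847 UMIs in kept nuclei, and each of PFC 20070604 to 26168411. Pairs of the 6 libraries shared 8 to 18 barcodes, at most 0.258% of the smaller library.

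**Figure D1:**
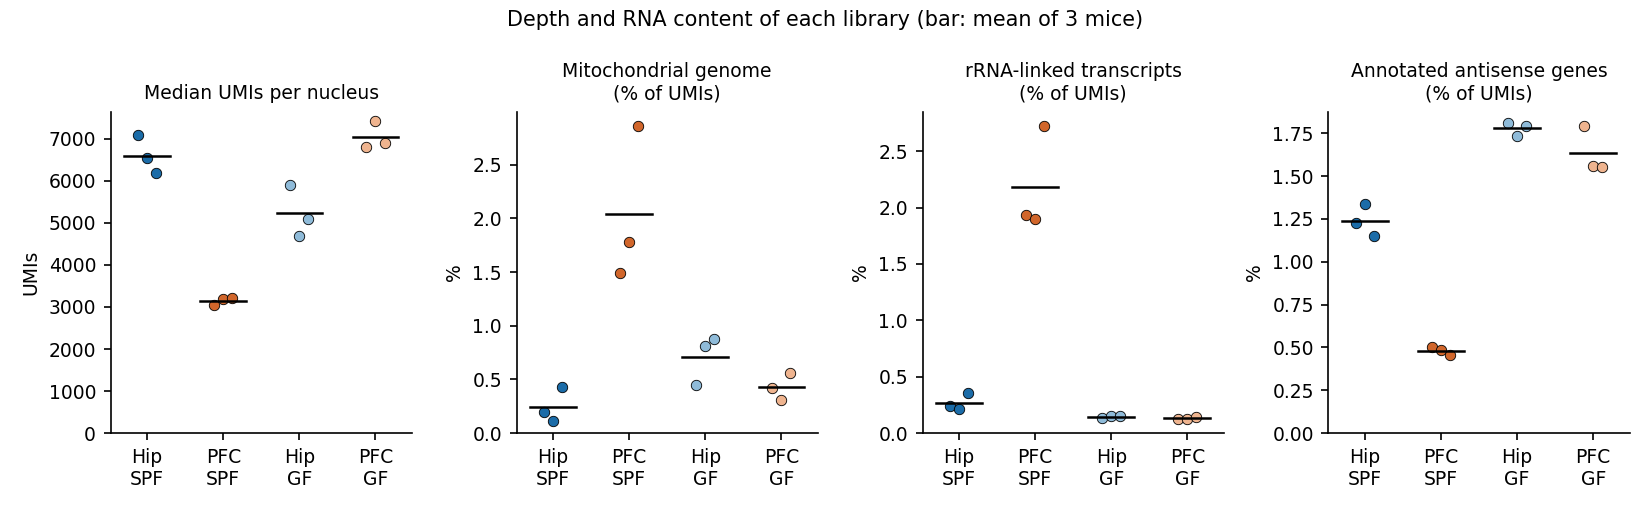
Each point is 1 library of SPF or GF mice, with the mean of 3 mice as a bar. The panels give the median UMIs per nucleus and the percent of UMIs from the mitochondrial genome, from transcripts linked to ribosomal RNA and from annotated antisense genes. The SPF PFC libraries stand apart in all 4 panels (medians of 3037 to 3208 UMIs), and the GF PFC libraries do not share their position.

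Nuclei were assigned to 5 classes by marker genes. The excitatory neuron gate held 13335 nuclei of Hip and 13252 of PFC, the interneuron gate 1244 and 1194, the astrocyte gate 1839 and 1417, the oligodendrocyte gate 1968 and 717, and the microglia gate 518 and 267. The gate itself asked for at least 2 detected markers of a class, so the markers' levels within their own gate carry no test here. The gates were not pure. The 8 excitatory markers summed to 1359 to 2019 CPM (UMIs scaled to a common library size, here of all UMIs of the gate) in the microglia gate of the SPF libraries, against 4674 to 6556 CPM in the excitatory gate itself. The 10 oligodendrocyte markers summed to 792 to 1155 CPM in the microglia gate of Hip and to 209 to 357 CPM in that of PFC, so RNA of other cells in the gates differed between regions. The 8 interneuron markers summed to 2974 to 3542 CPM in the oligodendrocyte gate of Hip and to 1341 to 1423 CPM in that of PFC, and their source was not tested.

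Oligodendrocytes, the cells that make myelin, took a larger share of the nuclei in Hip. Their share was 9.79%, 8.16% and 8.34% of kept nuclei in Hip and 3.4%, 3.41% and 3.92% in PFC (8.76% ± 0.897 against 3.58% ± 0.295, SD, n = 3), higher in Hip in 3 of 3 mice. Excitatory neurons took 58.3%, 60.9% and 58.3% in Hip and 66.1%, 69.7% and 63.6% in PFC, lower in Hip in 3 of 3 mice. The groups did not overlap in either class. An exact two-sided permutation test gave p = 0.1 for both, the smallest that 3 against 3 libraries allow, and 0.25 after adjustment over the 5 classes. Paired by mouse, the exact two-sided sign-flip test gave p = 0.25 for both, the smallest that 3 mice allow, and 0.625 after adjustment. Interneurons (5.59% ± 1.32 in Hip and 6.04% ± 0.786 in PFC), astrocytes (8.22% ± 1.79 and 7.11% ± 1.04) and microglia (2.36% ± 1.12 and 1.34% ± 0.194) overlapped between regions, with exact p of 0.6, 0.4 and 0.4. In GF mice the oligodendrocyte share was also higher in Hip in 3 of 3 mice (6.80% ± 1.32 against 4.40% ± 0.385), whereas the excitatory share was lower in Hip in 1 of 3. The gates differed in depth between regions, and the median of the oligodendrocyte gate was 2257.5 to 2890 UMIs in Hip and 790.5 to 842 in PFC. With all libraries thinned to the same mean UMIs per nucleus the oligodendrocyte difference was 5.13 percentage points and the excitatory difference -9.48, against 5.19 and -7.31 as deposited.

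Most genes differed between the Hip and PFC libraries of SPF mice. Region cannot be told apart from the depth and the mitochondrial and ribosomal-RNA-linked RNA of these libraries within SPF mice alone. Over all nuclei, 35.2% of the 19439 genes tested were higher in Hip and 34.1% were lower (edgeR quasi-likelihood test on UMIs summed per library, mouse as a block, adjusted p under 0.05). The shares were 35.3% and 35% in excitatory neurons, 27.6% and 27.6% in interneurons, 21.1% and 22.4% in astrocytes, 16% and 15.5% in oligodendrocytes, and 9.45% and 11.5% in microglia. With DESeq2 the calls fell from 6879 to 4481 in interneurons, from 4954 to 2707 in astrocytes, from 3209 to 1535 in oligodendrocytes and from 949 to 247 in microglia, and in microglia to 524 without mouse 30 and 624 without mouse 32. Scaling by library totals in place of trimmed means moved the median of all genes to -0.17 in excitatory neurons (5282 higher and 7340 lower), to -0.20 in interneurons (2350 and 4381) and to 0.19 in microglia (655 and 400). Counts of list genes are read against these shares, and most are set beside the same contrast in GF mice. There, in a fit of all 18 libraries, 14.5% of genes were higher and 14% lower over all nuclei, 17.6% and 17.4% in excitatory neurons, 2.35% and 2.81% in interneurons, 4.47% and 4.29% in astrocytes, 2.72% and 3.3% in oligodendrocytes, and 1.23% and 1.43% in microglia. The regional effect itself differed between SPF and GF mice for 52.1% of genes over all nuclei, 53.5% in excitatory neurons, 37.8% in interneurons, 25.5% in astrocytes, 19.2% in oligodendrocytes and 7.35% in microglia, with a median difference over all genes of 0.08 to 0.16. The libraries of these mice also differed in quality. Malat1, a nuclear RNA, took 6.33% to 7.36% of UMIs in GF and 2.92% to 3.60% in SPF libraries. Ribosomal-RNA-linked transcripts took 0.125% to 0.144% in GF PFC and 1.90% to 2.72% in SPF PFC. Microbial status and library quality cannot be told apart in the SPF and GF difference. Of the genes called in SPF mice over all nuclei, 25.9% were called in the same direction in GF mice and 7.35% in the opposite one, and for 70.9% the SPF and GF effects differed. In excitatory neurons 30.3% were called in the same direction in GF mice and 9.44% in the opposite one. In the other 4 classes 6.02% to 11.7% were called in the same direction and 1.05% to 2.37% in the opposite one. The SPF and GF contrasts share no libraries, but the GF contrast comes from a fit that also holds the 6 SPF libraries and estimates its spread from all 3 groups, so the numbers of calls in the 2 fits do not have equal power.

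Most genes that mark the fields of the hippocampus were higher in Hip in the excitatory neurons. Of 37 genes in 5 lists, 34 passed the filter on low counts, of which 28 were higher in Hip, 4 lower and 2 not called. Among all genes in this gate 35.3% were higher and 35% lower. The median log2 fold change (Hip minus PFC) of the listed genes was 1.76, against 0.004 over all genes tested. Of the 28, 25 were also higher in Hip in GF mice and 0 were lower there. The effect differed between SPF and GF mice for 18 of the 34, a share near the 53.5% of all genes. With libraries thinned to the same mean UMIs per nucleus 27 were higher and 3 lower, and with the trend on gene length and GC content removed 31 and 2. Thinning leaves the expected share of each gene in a nucleus unchanged, so it cannot show whether depth shifted these shares. All values that follow for excitatory neurons are CPM of the summed gate in the 3 Hip and then the 3 PFC libraries, and ± after a log2 fold change is its standard error. The gates mix neuron types, so a difference in the makeup of a gate and a difference in RNA per nucleus cannot be told apart.

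Of 10 dentate granule genes, 9 were higher (median 4.26, and 3.41 in GF mice, where 9 were higher too). Among all genes in this gate 35.3% were higher in SPF and 17.6% in GF mice. Prox1, the homeobox factor that holds granule neuron identity (ENSMUSG00000010175, GRCm38 chromosome 1, 190118035 to 190170714, minus strand), measured 88.3, 140.2 and 109 CPM in Hip and 1.40, 2.04 and 1.90 in PFC. The Hip values stood far above the PFC values in every mouse, with a log2 fold change of 5.98 ± 0.12 (adjusted p = 6.77e-10). In GF mice it was 6.02 ± 0.13, and the test of the difference gave an adjusted p of 0.998. Dsp, a desmosome protein used as a granule neuron marker, had 2450 UMIs in Hip and 3 in PFC, a ratio of 407 (95% counting interval 139 to 1980). C1ql2, a secreted synaptic protein of mossy fibres, was at 5.13, 9.01 and 10.6 CPM in Hip and 0.0559, 0 and 0.139 in PFC. Dock10 (4.46 ± 0.12) and Glis3 (3.37 ± 0.14) were higher by less, and also rose in GF mice (3.65 and 2.78). The exception was Plk5, a member of the polo-like kinase family, at 8.03, 12.3 and 10.2 CPM in Hip and 17.1, 27.2 and 13 in PFC. Its log2 fold change was -0.87 ± 0.15 (adjusted p = 0.000476), was -0.02 in GF mice, and with the length and GC trend removed measured -0.11 (adjusted p = 0.422).

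Pyramidal field genes were less uniform. Among all genes in this gate 35.3% were higher and 35% lower in SPF mice, and 17.6% and 17.4% in GF mice. Among 5 CA1 genes, 4 were higher and 1 lower, in SPF and in GF mice. Spink8, a serine protease inhibitor, measured 13, 14.0 and 9.30 CPM in Hip and 0.615, 0.391 and 0.555 in PFC (4.53 ± 0.23, adjusted p = 4.99e-08), and its difference was larger in SPF than in GF mice by 2.25 ± 0.31 (adjusted p = 5.68e-05). Fibcd1, a chitin-binding membrane receptor, measured 20.2, 19.1 and 19.8 CPM in Hip and 3.46, 3.39 and 5.97 in PFC (2.23 ± 0.17, adjusted p = 8.95e-07), and the SPF minus GF difference was -1.67 ± 0.29 (adjusted p = 0.000371). These CA1 genes deviated from GF mice in opposite directions. Mpped1 was the CA1 gene lower in Hip (-0.40 ± 0.11, and -0.49 in GF mice). Of 12 CA2 and CA3 genes, 9 were higher and 2 lower (median 0.89, and 0.55 in GF mice, where 7 were higher and 1 lower). Iyd (3.03 ± 0.32, GF 2.34), an iodotyrosine deiodinase, was higher in both kinds of mice, and Trps1 (2.28 ± 0.12), a GATA-type repressor, was higher by 1.49 more than in GF mice (adjusted p = 2.04e-05). Prss35 was higher in SPF mice (1.43 ± 0.20, adjusted p = 9.94e-05) and measured 0.04 ± 0.22 (adjusted p = 0.908) in GF mice.

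Of 5 tested genes shared by several hippocampal fields, 4 were higher, against 35.3% of all genes in this gate. Zbtb20, the zinc finger factor that represses cortical programmes in hippocampal neurons (GRCm38 chromosome 16, 42875881 to 43642602, plus strand), measured 2797, 3501 and 3057 CPM in Hip and 101, 92 and 107 in PFC. Nr3c2, the mineralocorticoid receptor, which binds corticosterone at low levels, measured 1023, 1411 and 1157 CPM in Hip and 83.5, 94.2 and 104 in PFC. Both separated all 6 libraries, with log2 fold changes of 4.96 ± 0.19 (adjusted p = 7.01e-09) and 3.66 ± 0.14 (adjusted p = 9.27e-09). Both also rose in GF mice (3.70 and 2.19), by less (differences of 1.31 and 1.52, adjusted p = 0.000586 and 5.7e-05). Lhx2, a LIM homeobox factor of the whole cortical field, was not called (0.19 ± 0.13). Trp73 (2.41 ± 0.27) and Ebf3 (3.97 ± 0.52), factors of Cajal-Retzius neurons, which persist along the hippocampal fissure, were higher in Hip. The other 2 Cajal-Retzius genes listed did not pass the filter.

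**Figure D2:**
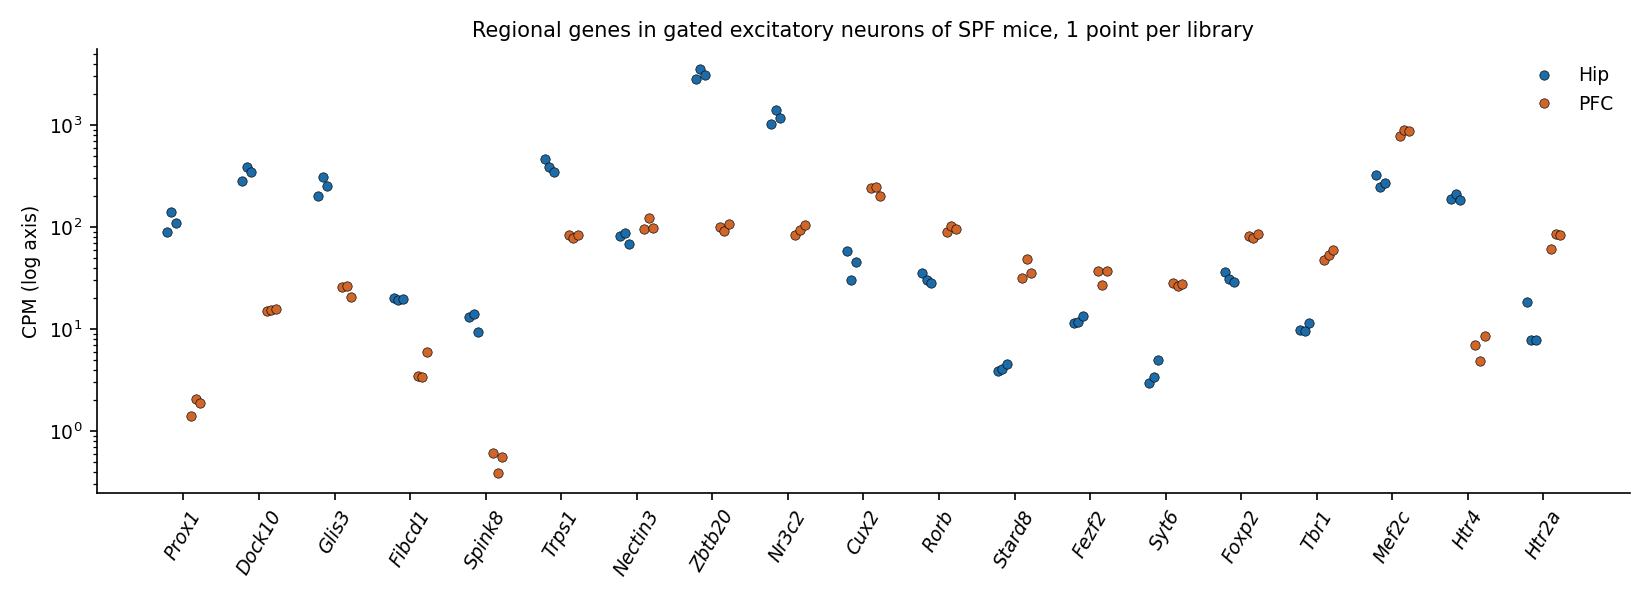
Each point is 1 library of SPF mice (blue, Hip and orange, PFC), giving CPM of the gene in the gated excitatory neurons on a log axis. Prox1 to Nr3c2 are hippocampal list genes, of which Nectin3 alone lies lower in Hip, Cux2 to Mef2c are cortical list genes, and Htr4 and Htr2a are serotonin receptors.

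Single cortical genes were lower or higher in Hip. Of 41 genes in 4 lists, 39 were tested, 20 were lower in Hip and 15 higher (median -0.65), against 35% and 35.3% of all genes, so that the higher count is near the background. Of these, 14 of the 20 and 14 of the 15 were called in the same direction in GF mice and 0 in the opposite one, and the effect differed between SPF and GF mice for 20 of the 39, which is also near the share of all genes (53.5%). Upper and middle layer genes were lower in Hip in 7 of 9 cases, 6 of which were also lower in GF mice. Stard8, a GTPase-activating protein, measured 3.83, 4.08 and 4.49 CPM in Hip and 31.4, 48.6 and 35.6 in PFC (-3.20 ± 0.14, adjusted p = 1.55e-08, GF -3.49). Cux2, the upper-layer homeobox factor, measured 57.9, 29.9 and 45.4 CPM in Hip and 242, 249 and 202 in PFC (-2.42 ± 0.17, adjusted p = 5.55e-07, GF -1.93). For neither did the SPF and GF effects differ past the threshold (adjusted p = 0.15 and 0.535). Otof, the calcium sensor otoferlin, was lower (-3.03 ± 0.09, GF -1.75), as was Rorb, the nuclear receptor of layer 4 (-1.61 ± 0.11, GF -2.78). Scnn1a (1.72 ± 0.25) and Hsd11b1 (1.65 ± 0.20), the enzyme that regenerates corticosterone, were higher in Hip in both kinds of mice.

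For several deep-layer genes the SPF and GF contrasts differed. Of 10 layer 5 genes 6 were higher and 3 lower, and of 11 layer 6 genes 4 were higher and 5 lower. Against 35.3% and 35% of all genes, nothing is read from these counts for the deep layers as a group. Syt6, a synaptotagmin of layer 6, measured 2.95, 3.35 and 4.97 CPM in Hip and 28.3, 26.1 and 27.8 in PFC (-2.88 ± 0.15, adjusted p = 6.54e-08, GF -3.47). Foxp2, the forkhead factor of corticothalamic neurons, was lower (-1.35 ± 0.10, GF -1.96). Both were called in SPF and in GF mice. Fezf2, which specifies subcerebral projection neurons, measured 11.5, 11.8 and 13.4 CPM in Hip and 36.9, 27.1 and 37.4 in PFC (-1.45 ± 0.11, adjusted p = 1.03e-06) but -0.13 ± 0.13 (adjusted p = 0.488) in GF mice, a difference of -1.28 ± 0.19 (adjusted p = 9.6e-05). Cplx3 (-2.60 ± 0.32, GF -0.35), a complexin of layer 6b, Rprm (-1.98 ± 0.15, GF 0.17) and Ctgf (-1.67 ± 0.18, GF -0.08), a secreted matrix protein of layer 6b, were lower too. None of these 4 genes was called in GF mice, and for each the difference was called (adjusted p of 0.000968, 5.33e-05 and 0.00569 for the last 3). In this gate 53.5% of all genes had a differing effect. Genes under 3 kb as a whole had a median of -0.46 in SPF and 0.26 in GF mice. The part of gene length in the values of these 4 genes was not tested further. The deep-layer genes higher in Hip included Tshz2 (2.45 ± 0.13), Trhr (2.97 ± 0.31), Bcl6 (1.91 ± 0.17), Etv1 (1.44 ± 0.10) and Moxd1 (1.81 ± 0.19), and all 5 were also higher in GF mice (1.94, 1.39, 1.38, 1.06 and 2.43). Deptor, an inhibitor of the kinase mTOR, was not called in SPF mice (-0.16 ± 0.13) and was lower in GF mice (-1.09 ± 0.16).

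Among 9 transcription factors of several layers, 5 were lower in Hip and 3 higher, too few to set apart from the shares of all genes. Tbr1, which specifies early-born cortical neurons, measured 9.81, 9.49 and 11.5 CPM in Hip and 47.4, 53.4 and 59.0 in PFC (-2.37 ± 0.10, adjusted p = 1.18e-08, GF -1.23). Mef2c (-1.60 ± 0.14, GF -1.75), an activity-regulated factor, was lower too. Nr2f2 (2.82 ± 0.15, GF 2.80) and Lmo3 (2.49 ± 0.12, GF 1.08) were higher. Nr2f1 was called lower (-0.66 ± 0.09), but measured -0.07 in GF mice and 0.05 once the length and GC trend was removed. Foxp1 was not called (0.02 ± 0.11) and became lower (-0.54, adjusted p = 7.74e-05) under that correction.

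Single receptors for serotonin, dopamine and noradrenaline differed between the regions. Of 17 tested in excitatory neurons, 7 were higher and 7 lower in Hip, shares near the 35.3% and 35% of all genes, so that nothing is read from the count for the receptors as a group. In GF mice 6 of each were called in the same direction. Htr4, a receptor that raises cyclic AMP, measured 188, 211 and 183 CPM in Hip and 7.04, 4.82 and 8.56 in PFC (4.85 ± 0.18, adjusted p = 5.47e-09, GF 3.21). Htr2a, the main serotonin receptor of cortical pyramidal neurons (GRCm38 chromosome 14, 74640840 to 74709494, plus strand), measured 18.3, 7.80 and 7.77 CPM in Hip and 60.6, 84.7 and 84.1 in PFC (-2.86 ± 0.28, adjusted p = 6.14e-06, GF -3.25). The 2 receptors thus lay on opposite sides, in SPF and in GF mice alike. Drd5 (2.74 ± 0.35), Htr5b (2.50 ± 0.27) and Htr2c (1.84 ± 0.16) were higher in Hip, and the noradrenaline receptor Adra1b was lower (-2.48 ± 0.25).

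Single genes of a list of type II and related cadherins, adhesion molecules that sort neurons by region, had opposite regional differences in SPF and GF mice. Of 14, 5 were higher and 5 lower in SPF mice (median 0.04), 3 were higher and 10 lower in GF mice (median -0.72), and the effect differed for 11, with 10 larger in SPF, against 53.5% of all genes with a differing effect. Genes longer than 300 kb moved the same way as a whole, with a median of 0.41 in SPF and -0.21 in GF mice, and with the length and GC trend removed 5 cadherins were higher and 7 lower in SPF mice. The part of gene length in the cadherin values was not tested further. Cdh9 (2.59 ± 0.13, GF 1.54), which acts at synapses of granule neurons onto CA3, and Cdh8 (1.88 ± 0.12, GF 0.64) were higher in both. Cdh7 was lower in both (-1.38 ± 0.09, GF -1.89). Cdh12 and Cdh11 were higher in SPF mice (0.80 ± 0.14 and 0.75 ± 0.12) and lower in GF mice (-0.66 ± 0.13 and -0.44 ± 0.10). With the length and GC trend removed they measured 0.05 (adjusted p = 0.55) and 0.40 (adjusted p = 0.00142) in SPF mice.

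**Figure D3:**
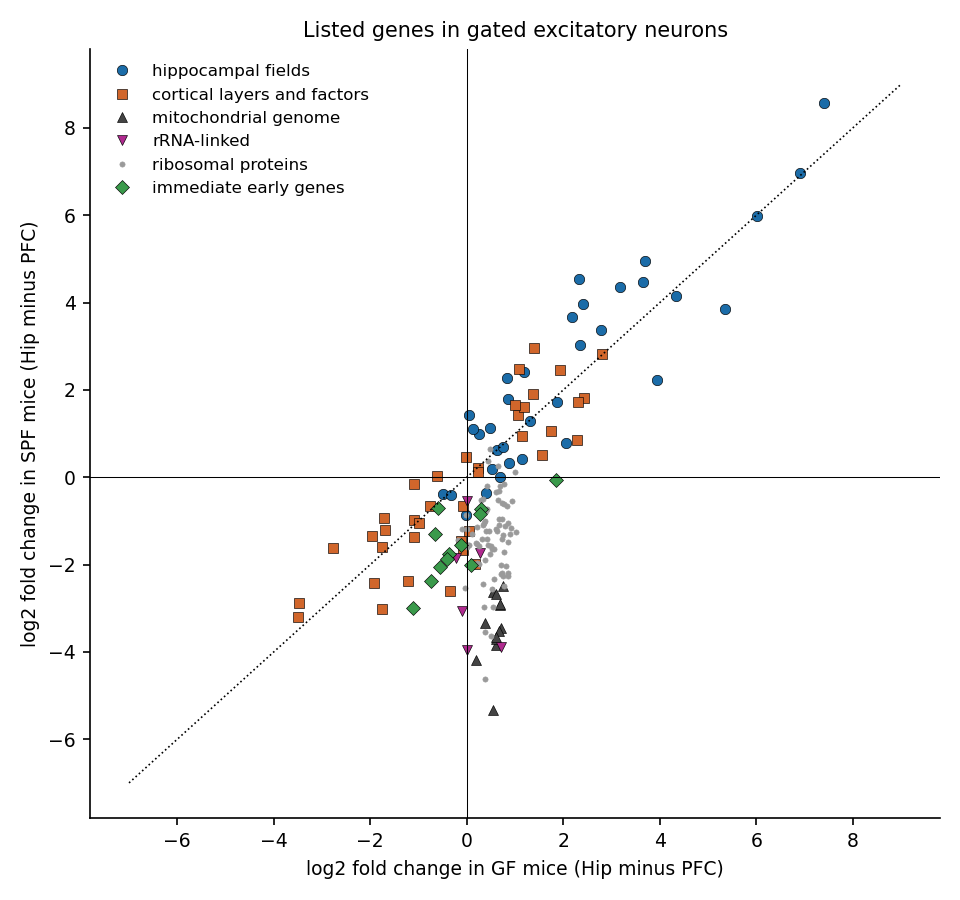
Each point is 1 listed gene in gated excitatory neurons, with its log2 fold change (Hip minus PFC) in GF mice on the horizontal and in SPF mice on the vertical axis, and the dotted line marks equal values. Hippocampal and cortical list genes spread along the line, while the mitochondrial, ribosomal-RNA-linked and ribosomal protein genes mostly lie below it (median of the 13 mitochondrial genes -3.44 in SPF and 0.61 in GF mice).

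In interneurons, 5 neuropeptide genes (Npy, Sst, Crh, Vip and Tac1) were lower in Hip, while Cck, a further one, was not called. Of 24 subclass genes, 21 were tested, 11 were lower and 3 higher (median -0.64), against 6 lower and 1 higher in GF mice, and the effect differed for 13. Of all genes in this gate 27.6% were lower, 27.6% higher and 37.8% had a differing effect. Npy, neuropeptide Y (GRCm38 chromosome 6, 49822710 to 49829507, plus strand), measured 19.1, 12.7 and 14.5 CPM in Hip and 434, 453 and 433 in PFC, and Sst, somatostatin, 75.1, 46.2 and 50.7 CPM in Hip and 362, 380.3 and 351 in PFC. The 3 PFC values of each gene lay close together and above all Hip libraries, with log2 fold changes of -4.82 ± 0.13 (adjusted p = 3.65e-16) and -2.68 ± 0.12 (adjusted p = 4.44e-13). In GF mice Npy was lower in Hip by less (-1.40 ± 0.16, difference -3.40 ± 0.25, adjusted p = 3.59e-09), and Sst was not called (-0.45 ± 0.18, difference -2.21 ± 0.27, adjusted p = 1.95e-06). Crh (-3.87 ± 0.32, GF -1.37), Vip (-2.98 ± 0.12, GF -1.07), Tac1 (-2.35 ± 0.27, GF -1.10) and Pvalb (-2.19 ± 0.18, GF -0.62), the calcium buffer of fast-spiking cells, were lower in both, and further in SPF mice (adjusted p of the difference 0.00111, 0.000134, 0.00493 and 6.35e-05). In this gate genes under 3 kb as a whole had a median of -1.0 in SPF and 0.20 in GF mice. Genes of 3 to 10 kb had medians of -0.56 and 0.11. The part of gene length in the differences of Crh, Vip, Tac1 and Pvalb was not tested further.

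Genes of lineage and other subclasses were mixed. Lhx6, the factor of interneurons from the medial ganglionic eminence and itself a gate marker, measured 60.2, 57.0 and 47.3 CPM in Hip and 61.3, 64.3 and 53.1 in PFC, with overlap. Sox6, which acts after Lhx6 in the same lineage, measured 297, 255 and 217 CPM in Hip and 463, 430.4 and 452 in PFC and was lower in Hip in SPF (-0.82 ± 0.10, adjusted p = 8.19e-07) and in GF mice (-1.40 ± 0.12). Both factors belong to the lineage that gives Sst and Pvalb cells. Lamp5 (-1.49 ± 0.15) and Calb2 (-1.73 ± 0.25) were lower in SPF mice and were -0.08 and 0.07 in GF mice. Maf (0.66 ± 0.10), Reln (0.51 ± 0.10) and Satb1 (0.26 ± 0.09) were the 3 genes higher in Hip, none of them called in GF mice. With the trend removed Reln (0.15, adjusted p = 0.111) and Satb1 (-0.05, adjusted p = 0.614) were no longer called. Cck was not called (-0.09 ± 0.13) and was higher with the trend removed (0.81, adjusted p = 2.8e-05). With the same correction Npy and Sst kept their direction (-4.11 and -1.44).

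**Figure D4:**
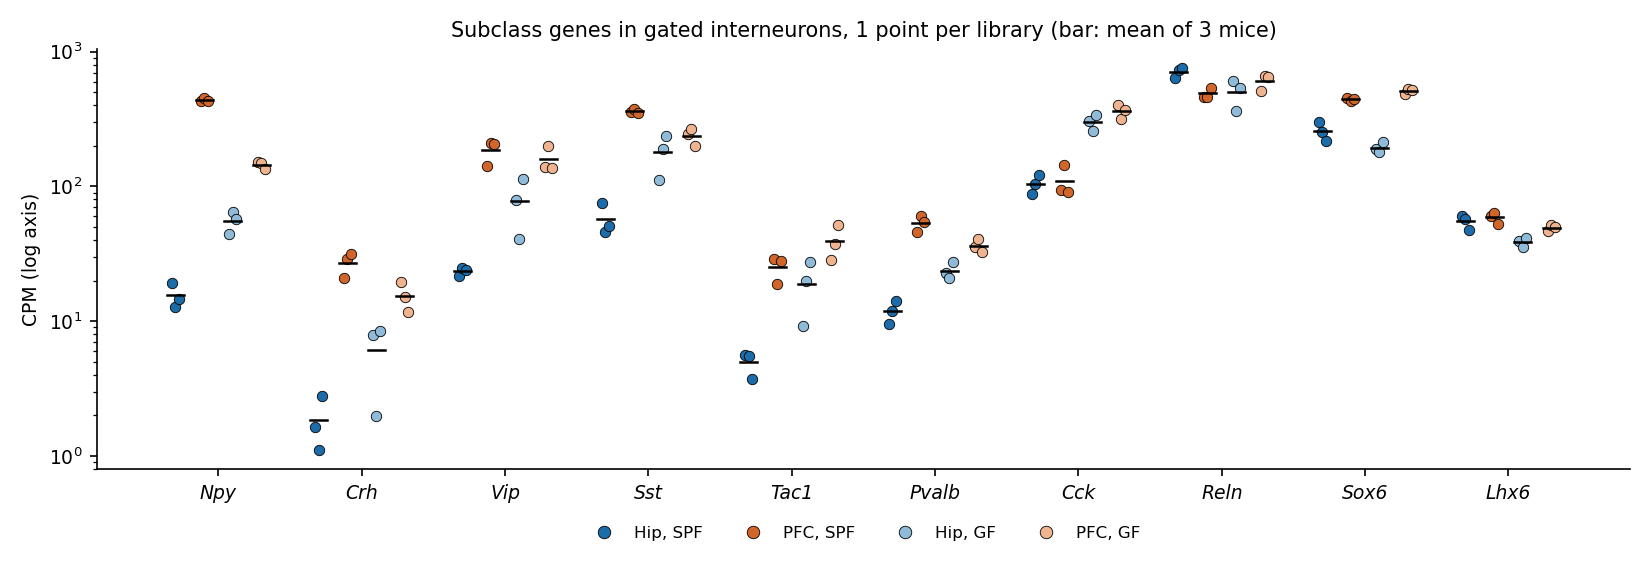
Each point is 1 library of SPF or GF mice, giving CPM in the gated interneurons on a log axis, with the mean of 3 mice as a bar, all from the fit of 18 libraries. Npy and Sst of SPF mice separate Hip from PFC by more than those of GF mice, and Sox6 separates the regions in both.

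Single astrocyte genes differed between the regions. Of 20 listed genes, 8 were higher in Hip and 5 lower, against 21.1% and 22.4% of all genes, so that the lower count is near the background. In GF mice 5 were higher and 2 lower, with 4 and 2 in common, and the effect differed for 7, against 25.5% of all genes. Without Aqp4, the water channel and a marker of the gate, 7 were higher and 5 lower. Chrdl1, a secreted BMP antagonist of cortical astrocytes, measured 10.8, 20.4 and 20.6 CPM in Hip and 45.9, 78.5 and 88.5 in PFC (-2.03 ± 0.24, adjusted p = 1.15e-15, GF -2.74). Unc13c was also lower in both (-1.94 ± 0.14, GF -2.30). Agt, angiotensinogen, measured 18, 18.1 and 15.9 CPM in Hip and 2.08, 2.18 and 6.56 in PFC (2.14 ± 0.54, adjusted p = 0.00033, GF 2.67), with 6 UMIs in all PFC libraries together. Crym (2.20 ± 0.30, GF 1.39), the glutamate receptor subunit Gria1 (1.01 ± 0.15, GF 1.65) and Gfap (0.93 ± 0.22, GF 0.79), the intermediate filament of hippocampal astrocytes, were higher in both. In the astrocyte and microglia gates the fit assigned 1 common quasi-likelihood spread to all genes, and in oligodendrocytes nearly so, so that small p-values there do not rest on the spread of the single gene. Gfap had 0 UMIs in the PFC of mouse 31, and its adjusted p was 0.455 with DESeq2.

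For other astrocyte genes the SPF and GF effects differed. Itih3, a hyaluronan-binding protein, measured 58.3, 45.5 and 43.2 CPM in Hip and 617, 449 and 419.7 in PFC, a log2 fold change of -3.33 ± 0.15 against -0.23 ± 0.17 (adjusted p = 0.499) in GF mice, and the difference was -3.04 ± 0.23 (adjusted p = 7.69e-13). Mfge8 (-1.08 ± 0.15, GF 0.02), a bridging protein of phagocytosis, was lower, and Zbtb20 was higher (1.46 ± 0.16, GF 0.10). The difference was called for both (adjusted p = 6.12e-05 and 1.07e-07). Frzb had 2 UMIs in PFC and 111 in Hip, a ratio of 14.9 (95% counting interval 4.03 to 125.0). The potassium channel Kcnj10 was not called (0.30 ± 0.19).

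Oligodendrocyte genes moved in both directions. Of 18 genes of myelin and maturation, 14 were not markers of the gate. Of these, 13 were tested, 5 were higher and 4 lower, against 0 and 2 in GF mice, and the effect differed for 4. Of all genes in this gate 16% were higher, 15.5% lower and 19.2% had a differing effect. With DESeq2 only 1 was higher and 3 were lower, and with the length and GC trend removed 5 were higher and 6 lower. Itpr2, a calcium release channel of newly formed oligodendrocytes, was the 1 gene lower in both (-0.83 ± 0.20, GF -0.77). Ptgds, prostaglandin D2 synthase of mature cells, measured 94.5, 96.1 and 72.2 CPM in Hip and 382, 391 and 384 in PFC, and Grm3, a glutamate receptor, 1447, 1423 and 1014 CPM in Hip and 411, 481 and 489.5 in PFC. Neither gene overlapped between regions, with log2 fold changes of -2.16 ± 0.16 (adjusted p = 5.19e-22) and 1.46 ± 0.14 (adjusted p = 7.15e-16). In GF mice they were -0.28 and 0.07, and the differences were -1.80 ± 0.20 (adjusted p = 4.93e-11) and 1.46 ± 0.19 (adjusted p = 7.03e-09). Hapln2, a link protein of nodes of Ranvier, was lower (-1.48 ± 0.17, GF 0.03). The myelin genes Mbp, Mag and Mog chose the nuclei of the gate, and their values are a description. Mbp, myelin basic protein, measured 3291, 3186 and 2809 CPM in Hip and 4279, 3955 and 5166 in PFC, and Mog, a glycoprotein of the outer myelin surface, 782, 796 and 598 CPM in Hip and 347, 409 and 388 in PFC. The oligodendrocytes of PFC were the shallower ones, with medians of 790.5 to 842 UMIs against 2257.5 to 2890 in Hip. Il33, an alarmin cytokine, was higher (1.87 ± 0.50), with 0 UMIs in 2 of 3 PFC libraries and an adjusted p of 0.17 with DESeq2. Tcf7l2 was not called (-0.35 ± 0.18) and was lower in GF mice (-0.87 ± 0.15).

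In microglia, 5 of the 12 homeostatic genes were not markers of the gate. Of these, 3 were tested, 0 were higher and 1 was lower, and 0 were called in GF mice. Of all genes in this gate 9.45% were higher and 11.5% lower, and nothing is read from counts in so short a list. The lower gene was Fcrls (-0.77 ± 0.27), with no called difference from GF mice, and it was no longer called with DESeq2 (adjusted p = 0.303) or with the length and GC trend removed (adjusted p = 0.148). The other homeostatic genes helped to choose the nuclei, and their values are a description. Tmem119, a surface marker of resident microglia, measured 107, 80.2 and 88.9 CPM in Hip and 297, 158 and 329.8 in PFC. P2ry12, a purine receptor, measured 949, 833 and 573 CPM in Hip and 572, 634 and 707 in PFC. The gated microglia of PFC had medians of 660 to 713 UMIs and those of Hip 1749 to 2399.

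Of 12 activation genes 5 had enough counts. In this gate 9.45% of all genes were higher in Hip and 11.5% lower, and nothing is read from how many of the 5 were called. Trem2, a lipid receptor, measured 78.8, 105 and 72.3 CPM in Hip and 191, 317 and 204 in PFC (-1.46 ± 0.36, adjusted p = 0.000969), and its adaptor Tyrobp was lower too (-1.22 ± 0.48), with overlap. Apoe, the lipid carrier, measured 1025, 796 and 806 CPM in Hip and 254, 452 and 377 in PFC and was higher in Hip (1.27 ± 0.25, adjusted p = 1.05e-05), as was Cd9 (1.85 ± 0.67). Trem2 and Apoe thus lay on opposite sides. In GF mice these 4 measured -0.04, -0.24, 0.29 and 0.45, with 0 of the 5 called, and the difference was called for Trem2 and Apoe (adjusted p = 0.0124 and 0.00641). The counts were small, with 36 UMIs of Trem2 and 56 of Apoe in all 267 PFC nuclei. Apoe is also abundant in astrocytes, and the 12 astrocyte markers summed to 3065 to 4379 CPM in the microglia gate of Hip and to 2559 to 3258 in that of PFC, whose part in the result was not tested. The 10 oligodendrocyte markers summed to 792 to 1155 CPM in this gate of Hip and to 209 to 357 in that of PFC. The part of oligodendrocyte RNA in the Cd9 value was not tested either. With DESeq2 the adjusted p was 0.0614 for Trem2, 0.00522 for Apoe, 0.32 for Tyrobp and 0.288 for Cd9.

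Over all nuclei, the 6 choroid plexus genes were all higher in Hip (5 of them in GF mice too), against 35.2% of all genes. Ttr, transthyretin, the main secreted protein of the choroid plexus, measured 124, 167 and 856 CPM in the Hip of mice 30, 31 and 32 and 0, 0.0767 and 0.0387 in their PFC. Its 70778 UMIs in Hip against 3 in PFC gave a ratio of 10000 (95% counting interval 3430 to 48700). Mouse 32 held the most, and its Hip library was also the highest of the 3 Hip libraries in mitochondrial and ribosomal-RNA-linked RNA. Prlr (5.38 ± 0.21), the prolactin receptor, Otx2 (6.07 ± 0.39), a choroid plexus factor, and Kl (3.60 ± 0.22), the FGF23 co-receptor klotho, were higher by less. Nuclei gated as choroid plexus or ependyma were 0.343% to 0.551% of the Hip and 0% to 0.035% of the PFC nuclei. Ttr was nevertheless found in every gate of Hip, at 97.8, 126 and 599 CPM in interneurons, 272, 352 and 1550.0 in astrocytes, 320.3, 438 and 2120.0 in oligodendrocytes and 496, 642 and 2824 in microglia, with 0 UMIs in these 4 gates of PFC. Against the limit of 3 counts that a count of 0 allows over the PFC libraries, this was at least 342-fold, 378-fold, 234-fold and 52.2-fold higher. It kept the same order of mice in each gate.

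Ependymal genes were higher in Hip in 4 of 5 cases, among them Tmem212 (3.8 ± 0.98) and Foxj1 (1.67 ± 0.36), the factor of motile cilia. Over all nuclei 35.2% of all genes were higher in Hip and 34.1% lower. The lists in this paragraph are short, and nothing is read from their counts. Of 7 genes of striatal projection neurons, 5 were lower in Hip and 0 higher, for example the phosphatase inhibitor Ppp1r1b (-2.63 ± 0.32, GF -0.89). The deep layers of the cortex use part of these genes as well. Of 5 thalamic genes 3 were higher, Slc17a6 (1.38 ± 0.20) and Prkcd (1.40 ± 0.17) among them, and 2 lower, of which Tnnt1 was at most 1.5 CPM (-3.21 ± 0.35, GF 0.09). Neither of the 2 olfactory bulb genes tested was called. Of 5 blood transcripts, 3 were higher in Hip and 1 lower. Hbb-bs (2.27 ± 0.31) and Alas2 (3.43 ± 0.22) were higher in Hip, Hba-a1 was lower (-0.99 ± 0.30, with overlap, adjusted p = 0.0165), and in GF mice 0 of 5 were called. The call of Hba-a1 was lost with DESeq2 (adjusted p = 0.113), without mouse as a block (0.0725) and with the length and GC trend removed (0.41). The 3 values were 0.10, 0.30 and 0.07 in GF mice.

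Mitochondrial transcripts were higher in PFC in every class, with all tested genes lower in Hip (13 in 4 classes and 11 in microglia). Over all nuclei the 13 mitochondrial genes were all lower in Hip (median -3.37, and 0.58 in GF mice), and the effect differed for all 13. mt-Co1, a subunit of cytochrome oxidase, measured 293, 181 and 582 CPM in Hip and 3062, 4063 and 6210.0 in PFC (-3.76 ± 0.26, adjusted p = 2.61e-06). The 6 ribosomal-RNA-linked transcripts were all lower (median -2.63, and 0.02 in GF mice), from Gphn (-0.70 ± 0.15) to Gm42418, at 819.5, 598 and 1675 CPM in Hip and 11510.0, 11700.0 and 17910.0 in PFC (-3.84 ± 0.27), and Cmss1 (-3.90 ± 0.15). Of 80 ribosomal protein genes 67 were lower and 2 higher (median -1.24), whereas in GF mice 0 were lower and 41 higher (median 0.43). Rpl28, of the large subunit, was lower (-4.79 ± 0.17, GF 0.44). Of 6 nuclear long noncoding RNAs, 2 were lower, Mirg (-0.55 ± 0.09) and Miat (-0.24 ± 0.09), and 1 was higher, Neat1 (0.40 ± 0.08), while Malat1 (-0.15 ± 0.31) and Meg3 (0.02 ± 0.19) were not called. Without mouse as a block Neat1 and Miat were no longer called (adjusted p = 0.0933 and 0.105), and with the length and GC trend removed Miat was on the other side (0.11). In oligodendrocytes 4 of 6 were lower and in astrocytes 3 of 6, against 15.5% and 22.4% of all genes. Over all nuclei 34.1% of all genes were lower and 35.2% higher, and nothing is read from the counts of this short list.

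Activity-regulated genes followed the same side. Of 12 immediate early genes, 11 were lower in Hip over all nuclei (median -1.34, with 34.1% of all genes lower), against 5 in GF mice (median -0.35), and the effect differed for 10. Egr1 measured 26.4, 19.8 and 24.2 CPM in Hip and 112, 105 and 101 in PFC (-2.19 ± 0.10, adjusted p = 2.52e-07, GF -0.78). Arc (-2.02 ± 0.09, GF -0.53), which shapes synapses after activity, and Npas4 (-1.96 ± 0.10, GF -0.37) were lower, and Nr4a1 was lower in both (-0.83 ± 0.09, GF -0.54, adjusted p of the difference 0.466). Jun was the 1 gene not called (0.01 ± 0.15), with a higher value in the Hip of GF mice (1.61). Of 10 heat shock chaperones 8 were lower, Hsp90ab1 for example (-1.84 ± 0.16, GF 0.45), and Hspb1 alone was higher (2.10 ± 0.25). Of 78 nuclear genes of oxidative phosphorylation 38 were lower and 17 higher (median -0.38), against 2 and 34 in GF mice (median 0.41). With the libraries thinned to the same mean UMIs per nucleus 11, 8 and 39 genes of these 3 lists were lower, and the same numbers with mitochondrial, ribosomal-RNA-linked and ribosomal protein genes removed. Thinning leaves the expected share of each gene in a library unchanged, and removal rescales the other genes of a library together. Neither could thus move these counts much. Genes under 3 kb as a whole had a median of -0.26 in SPF and 0.23 in GF mice over all nuclei. Counts of these lists with the length and GC trend removed are not given here. The share of mitochondrial RNA moved with these lists. The parts of mitochondrial RNA and of gene length in the values were not tested further.

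Annotated antisense genes lay on the other side. This list was chosen after its values had been seen, and is given as a description. Of 1654 tested over all nuclei, 1076 were higher in Hip and 212 lower (median log2 fold change 1.64, and 0.05 in GF mice). Among all genes 35.2% were higher and 34.1% lower. The median was 1.76 in excitatory neurons, 2.50 in interneurons, 1.70 in astrocytes, 2.04 in oligodendrocytes and 1.51 in microglia, and in GF mice between -0.05 and 0.06 in these 5 classes. Nrg3os lies wholly inside Nrg3 on the opposite strand (GRCm38 chromosome 14, 38898302 to 38958794, plus strand) and measured 294, 329 and 244 CPM in Hip and 6.47, 7.52 and 6.12 in PFC. Its log2 fold change was 5.42 ± 0.10 (adjusted p = 2.1e-08), and was -0.05 ± 0.12 in GF mice. The sources used here name Cell Ranger but do not describe how strand was handled in counting. Whether reads from the partner enter the count of an antisense gene was not tested. Prox1os, the antisense partner of Prox1, was higher in SPF (6.87 ± 0.19) and in GF excitatory neurons (6.52 ± 0.18), as Prox1 was.

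Gene length moved with the regional difference in opposite directions in SPF and GF mice, and in CGF mice in the direction of SPF mice. In all nuclei of SPF mice the median log2 fold change went from -0.26 for genes under 3 kb through -0.17, -0.05, 0.11 and 0.19 to 0.37 for genes over 300 kb. In GF mice it went from 0.23 to -0.19, and in CGF mice from -0.395 to 0.519. In SPF excitatory neurons the ends were -0.46 and 0.41, and in interneurons -1.0 and 0.42. Depth, mitochondrial RNA and antisense counts moved with these values between libraries, and their part in the trend was not tested.

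**Figure D5:**
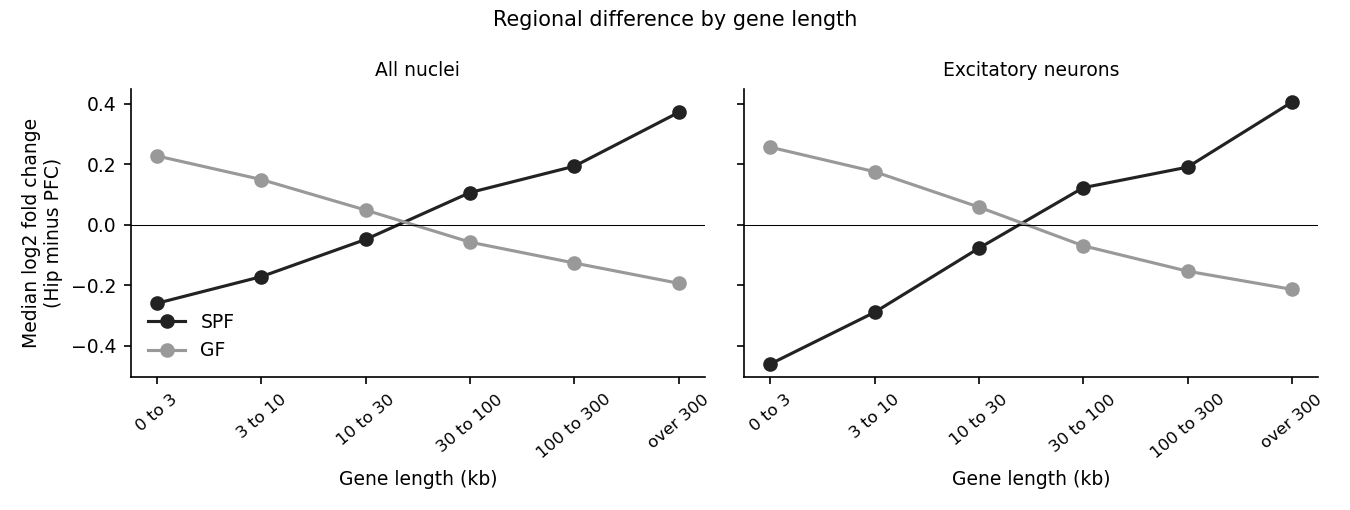
Median log2 fold change (Hip minus PFC) of the genes in 6 bins of gene length (kb), for all nuclei and for gated excitatory neurons, in SPF (black) and GF mice (grey). The SPF line rises from -0.26 to 0.37 over all nuclei and the GF line falls from 0.23 to -0.19.

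The 3 largest rises and falls of each class were also listed. Among genes at 20 CPM or more throughout the higher region, Lgr6, a Wnt pathway receptor, was high in Hip over all nuclei (4.89 ± 0.25, GF 4.78) and in excitatory neurons (6.30 ± 0.27, GF 5.59). Igfn1 was low in both (-5.60 ± 0.30 and -5.80 ± 0.32, GF -2.98 and -3.12), as were Dkkl1 (-5.34 ± 0.22, GF -2.69) and Catsperz (-5.30 ± 0.11, GF -1.56) over all nuclei. These kept their side in GF mice. Il31ra, a cytokine receptor, was low in Hip in all 5 classes, from -4.61 ± 0.23 in astrocytes to -5.37 ± 0.16 in excitatory neurons, and was not called in any of them in GF mice. mt-Nd6 was among the 3 largest falls in excitatory neurons (-5.32 ± 0.22), interneurons (-4.97 ± 0.30) and oligodendrocytes (-4.93 ± 0.47), mt-Atp8 in astrocytes (-5.23 ± 0.44) and oligodendrocytes (-5.06 ± 0.52), and mt-Nd4l in microglia (-4.80 ± 0.44). Rpl28 was so in interneurons (-4.96 ± 0.36) and astrocytes (-5.53 ± 0.42).

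Among the rises, Nrg3os (5.91 ± 0.20) and the metalloprotease gene Pappa (5.77 ± 0.36, GF 2.48) led the interneurons after Ttr. Several rises rested on 0 or 1 UMI in PFC. Galnt5 (271 UMIs in Hip) and Traf3ip2 (156) had 0 in PFC oligodendrocytes, at least 11.1-fold and 6.39-fold higher in Hip. Tg (110 UMIs) had 0 in PFC microglia and Pard3bos1 (166) 0 in PFC astrocytes, at least 6.44-fold and 14.8-fold higher. Spcs1 in astrocytes (203 UMIs against 1, ratio 54.5, interval 9.67 to 2160) and Dbi in microglia (79 against 1, ratio 13.9, interval 2.42 to 555) were of the same kind, and Dpp7 in microglia was the reverse (2 UMIs in Hip and 16 in PFC, 45.6-fold lower in Hip, interval 10.7 to 408). In GF mice Galnt5, Traf3ip2, Tg and Pard3bos1 were not called, while Spcs1 (0.75) and Dbi (1.27) were higher in Hip there too. These intervals cover counting error only.

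A last count separates what all classes shared. Of 8222 genes tested in all 5 classes in the fit of 18 libraries, 310 were higher in Hip in every class of SPF mice and 311 were lower in every class. The 311 held all 13 mitochondrial genes, all 6 ribosomal-RNA-linked transcripts and 7 of 48 ribosomal protein genes, and the 310 held 20 of 95 annotated antisense genes. In GF mice 34 genes were higher and 26 lower in every class, with 0 genes of any of these 4 kinds. In CGF mice, whose PFC libraries had medians of 2353 to 3035.5 UMIs and 1.21% to 2.09% mitochondrial UMIs, the counts were 384 and 357, again with all 13 mitochondrial genes among the lower ones. The 384 held 32 of the 95 annotated antisense genes.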

How the data were processed

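The files hold raw counts: UMIs per gene and nucleus for 30905 genes, which the authors made with Cell Ranger against mm10 and deposited without normalization. The submitters' processing notes also name CASAVA 1.8. Intronic counting and strand are not given in the sources used here. Nuclei with at least 200 genes and at most 10% mitochondrial UMIs were kept. A nucleus was assigned to a class when at least 2 markers were detected and its mean log-scaled marker level was at least 1.5 times the next class. No doublet caller was run.

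UMIs were summed per library, over all nuclei and per class, and tested with edgeR 4.0.16 (R 4.3.3): filterByExpr, trimmed-mean (TMM) factors, quasi-likelihood test, mouse as a block, Benjamini-Hochberg adjustment, threshold 0.05. CPM of single genes use TMM-scaled totals of the genes that passed filterByExpr, and summed marker CPM use the totals of all genes, so the 2 are not on the same scale. A second fit of all 18 libraries gave the GF and CGF effects and the SPF minus GF difference. The p-values of the SPF contrast rest on 3 mice (2 residual degrees of freedom) and those of the second fit on 9 mice (6), with the spread moderated across genes. In astrocytes and microglia the SPF fit gave all genes 1 common quasi-likelihood spread. The numbers in the titles pair both regions of 1 mouse: deviations of same-mouse libraries correlated at 0.206, 0.248 and 0.228 over 19439 genes, and those of different mice at -0.155 to -0.0851. Deviations were taken from the mean of each region, so the negative values follow from the positive ones and are no separate evidence. Gene positions are from the GRCm38 annotation. Counting intervals are 95% intervals, and a count of 0 was set to a limit of 3 counts over the group.

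Members, gene lists and tests were chosen with earlier results of these data known. Named genes are list members, those with the largest log2 fold changes first, plus the 3 largest rises and falls per class among called genes without overlap and with at least 20 CPM in all libraries of the higher region, clone names left out. Some listed genes are not reported here. Alternatives were DESeq2 1.42.0, other scalings, no filter, no block, each mouse left out, thinning to a mean of 3515 UMIs per nucleus, removal of the trend on gene length and GC content, removal of mitochondrial and ribosomal genes, and a stricter gate. The edgeR and DESeq2 fits were run on simulated data with few changed genes, a fixed spread and no mouse effect. Most genes differed over all nuclei here, so the simulation does not check the fits in that setting.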

Additional observations from a re-analysis of the deposited data

Results flagged for a closer look

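The regional effect differed between SPF and GF mice, by the test of that difference, for 11024 genes over all nuclei, 10812 in excitatory neurons, 5463 in interneurons, 3339 in astrocytes, 2290 in oligodendrocytes and 642 in microglia (52.1%, 53.5%, 37.8%, 25.5%, 19.2% and 7.35% of the genes tested). Of the 156 named results, 96 passed this test. Many of them were named for a large SPF effect, which favours a difference from GF mice, so nothing is read from that count. Microbial status cannot be told apart from library quality in any of these differences. The 42 with a difference of at least 2 on the log2 scale (SPF minus GF) follow.

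Over all nuclei the difference was 5.53 for Nrg3os and 3.18 for Alas2 on the positive side. It was -5.42 for mt-Nd6, -5.19 for Rpl28, -4.44 for Gm42418, -4.28 for mt-Co1, -3.89 for Cmss1, -3.69 for Catsperz, -3.25 for Tnnt1, -2.83 for Otx2, -2.60 for Dkkl1, -2.57 for Igfn1 and -2.24 for Hsp90ab1. In excitatory neurons it was 2.25 for Spink8, and -5.82 for mt-Nd6, -5.00 for Il31ra, -2.64 for Igfn1, -2.20 for Cplx3 and -2.10 for Rprm.

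In interneurons the difference was 5.94 for Nrg3os and 3.32 for Pappa, and -5.45 for Rpl28, -5.26 for mt-Nd6, -4.89 for Il31ra, -3.40 for Npy, -2.49 for Crh and -2.21 for Sst. In astrocytes it was 7.95 for Pard3bos1, 4.90 for Spcs1 and 2.95 for Frzb, and -5.35 for Rpl28, -4.78 for mt-Atp8, -4.48 for Il31ra and -3.04 for Itih3. In oligodendrocytes it was 8.69 for Galnt5 and 8.04 for Traf3ip2, and -7.01 for Il31ra, -5.69 for mt-Atp8 and -5.19 for mt-Nd6. In microglia it was 7.60 for Tg, -5.76 for Dpp7 and -5.48 for mt-Nd4l. The fitted differences of genes with 0 to 3 UMIs in a region of SPF mice (Pard3bos1, Spcs1, Frzb, Galnt5, Traf3ip2, Tg and Dpp7) depend on the prior count and are no bounds. Low counts in GF mice were not looked at for this list, so other differences, such as that of Il31ra in oligodendrocytes, can depend on it too.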

How the results depend on the processing

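Of 1797 alternative values of the 156 named results, 1738 kept their side of the threshold and, where called, their direction. Of the others, 44 lost the call, 10 gained it and 5 reversed. A change of sign with no call on either side was counted as kept. The 5 reversals came with removal of the trend on gene length and GC content, to 0.11 for Miat over all nuclei, to 0.049 for Nr2f1 and -0.54 for Foxp1 in excitatory neurons and to -0.052 for Satb1 and 0.81 for Cck in interneurons. Without mouse as a block 12808 genes were called over all nuclei, 12291 in excitatory neurons, 6419 in interneurons, 4415 in astrocytes, 2757 in oligodendrocytes and 753 in microglia, all within 1.5 times the blocked counts. Absence of the block ended 4 of the named calls.

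With an absolute log2 fold change of at least 1, 6953 genes were called over all nuclei, 7020 in excitatory neurons, 3193 in interneurons, 2611 in astrocytes and 1895 in oligodendrocytes. DESeq2 called 4481 in interneurons, 2707 in astrocytes, 1535 in oligodendrocytes and 247 in microglia, and for the SPF and GF difference 1925, 1295 and 252 in the 3 glial classes. In microglia thinning gave 543 calls and the stricter gate 438, and leaving out 1 mouse gave 524 (mouse 30), 681 (mouse 31) and 624 (mouse 32), of 949. The microglial difference count was 350 without mouse 30, 417 without mouse 31 and 440 without mouse 32, of 642. The excitatory share differed by -9.48 percentage points after thinning and -9.79 with the stricter gate, and the oligodendrocyte share by 4.07 with the stricter gate. The causes were not tested. The microglia gate of PFC held 267 nuclei in 3 libraries, which limits its precision.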
